A study of Mus musculus with 12 samples.

Results

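Signalling by bone morphogenetic proteins (BMP) and transforming growth factor beta (TGF-beta) was described through 10 genes in Lgr5-GFP+ intestinal stem cells. They were the ligand genes Bmp2, Bmp4, Bmp7 and Tgfb1, the receptor gene Bmpr1a, the inhibitor genes Smad7 and Bambi, and the target genes Id1, Id2 and Id3. The genes were chosen by name, and all 10 were found among the 14082 gene symbols used. The cells were sorted from the intestinal epithelium of C57BL/6 mice of 3 genotypes, with 4 mice and 4 libraries each. Apc_KO mice were ApcFlox/Flox, Apc_HET mice ApcFlox/+ and Apc_WT mice Apc+/+. All carried Lgr5-CreERT2-ires-eGFP, so that the same Lgr5-driven construct marked the cells and supplied the recombinase, and Apc_WT mice carried the Cre without a floxed allele. All received tamoxifen, by 1 injection and then in the diet for 5 days, and cells were collected on day 15. The labels give no age or sex.

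Both ligand families bind receptor serine/threonine kinases, which phosphorylate receptor Smads that enter the nucleus with Smad4. Inhibitor of DNA binding (Id) proteins are direct products of BMP signalling and bind E proteins, which they keep from DNA. In the intestine BMP signalling is low at the crypt base and higher towards the villus, and it restrains the stem cells. Apc belongs to the assembly that has beta-catenin degraded and so holds Wnt signalling down.

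Of the 5 promoters available from RefSeq (GRCm38.p6), 2 held a GC-rich Smad element, GGCGCC, which reads the same on both strands. One was that of Id2, which rose after loss of both Apc copies, and the other that of Bmpr1a, which did not pass the test. They are shown with that of Id3, which rose and held no such element, with the element in capitals. Each runs from 250 bases before to 50 after the RefSeq start. By the GENCODE annotation used here for gene positions, the genes start further upstream, so that the windows shown lie inside them. The windows of Id3 and Bmpr1a also lie wholly inside the deposited loci. The Id2 window is chr12:25096043-25096342 on the minus strand, the Bmpr1a window chr14:34502497-34502796 on the minus strand and the Id3 window chr4:136143572-136143871 on the plus strand.
Id2: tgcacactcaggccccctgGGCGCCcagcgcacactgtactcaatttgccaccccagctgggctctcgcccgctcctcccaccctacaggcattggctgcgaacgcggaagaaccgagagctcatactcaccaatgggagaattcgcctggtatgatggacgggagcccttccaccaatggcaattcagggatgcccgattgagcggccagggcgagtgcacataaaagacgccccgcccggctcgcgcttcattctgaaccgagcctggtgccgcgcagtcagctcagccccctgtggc
Bmpr1a: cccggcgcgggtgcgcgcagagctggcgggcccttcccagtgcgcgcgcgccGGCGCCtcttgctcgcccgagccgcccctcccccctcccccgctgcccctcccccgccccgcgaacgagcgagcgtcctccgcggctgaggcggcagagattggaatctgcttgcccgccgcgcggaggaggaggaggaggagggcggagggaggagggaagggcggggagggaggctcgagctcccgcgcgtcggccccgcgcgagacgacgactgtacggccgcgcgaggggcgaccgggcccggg
Id3: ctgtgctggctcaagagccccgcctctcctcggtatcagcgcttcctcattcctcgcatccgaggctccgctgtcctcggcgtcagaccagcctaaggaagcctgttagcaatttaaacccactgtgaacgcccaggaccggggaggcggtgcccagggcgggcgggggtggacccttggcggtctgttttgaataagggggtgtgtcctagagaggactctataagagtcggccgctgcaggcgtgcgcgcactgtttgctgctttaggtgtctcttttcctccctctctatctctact
The element began 231 bases before the RefSeq start of Id2 and 198 bases before that of Bmpr1a. The windows of Tgfb1 and Bmp4 held none. Of 32851 promoter windows of this length, 11.9% held GGCGCC. The palindromic Smad motif GTCTAGAC, in 0.213% of windows, and the TCF/LEF core CTTTGA searched on both strands, in 16.0% of windows, were in none of the 5. A match of letters is no measured binding site. Windows of Id1, Bmp2, Bmp7, Smad7 and Bambi were not used here.

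Values are FPKM (fragments per transcript length and per mapped fragments of the library), and differences are on the log2(FPKM + 1) scale with their standard error (SE). Differences were tested in 12962 genes with limma, and a gene was called at a Benjamini-Hochberg adjusted p under 0.05. On this scale differences of genes near 0 FPKM are understated. Total FPKM ran from 391710 to 518428 per library, and the correlation of libraries within a genotype from 0.913 to 0.981 across genes. The depth in reads is unknown. Apc averaged 13.8 ± 3.17 FPKM in Apc_KO, 11.01 ± 1.11 in Apc_HET and 8.89 ± 1.64 in Apc_WT cells (SD, n = 4 each). Its total RNA was thus not lower with the floxed alleles, and deletion could not be checked, since exons have no values of their own. By exact two-sided permutation tests, whose smallest possible p is 0.0286, p for Apc was 0.0857 for Apc_KO against Apc_WT, 0.0857 for Apc_HET against Apc_WT and 0.171 for Apc_KO against Apc_HET. The limma fit called Apc higher in Apc_KO than in Apc_WT cells, by 0.58 (limma adjusted p = 0.0142). Lgr5 averaged 41.0 ± 16.8 FPKM in Apc_KO, 26.4 ± 4.52 in Apc_HET and 23.8 ± 4.35 in Apc_WT cells (SD, n = 4 each), and limma called it higher in Apc_KO than in Apc_WT cells, by 0.70 (limma adjusted p = 0.0272), where the exact permutation p was 0.0571. Of 8 epithelial markers 7 were tested, and in Apc_KO against Apc_WT cells Vil1, Cdx2, Cdh1 and Cldn7 fell, Krt18 rose, and Epcam and Krt8 did not pass. The untested marker, Krt19, was below 1 FPKM in all 12 libraries. The sum of the 8 was 2020 to 3340 FPKM in Apc_KO, 2070 to 2430 FPKM in Apc_HET and 2060 to 2390 FPKM in Apc_WT cells. Epcam averaged 791 ± 215 FPKM in Apc_KO, 766.5 ± 12.5 in Apc_HET and 791 ± 63.2 in Apc_WT cells (SD, n = 4 each). Of 8 crypt base stem cell markers, Lgr5, Axin2, Tnfrsf19 and Cdca7 rose, Olfm4 and Slc12a2 fell, and Ascl2 and Smoc2 did not pass. Olfm4 stood at 105.9, 673.9, 702.4 and 81.7 FPKM in Apc_KO replicates 1 to 4, against 4693 to 7654 FPKM in Apc_HET and 5019 to 5782 FPKM in Apc_WT cells. The calls of the 10 genes in Apc_KO cells and their counts were therefore also computed without replicates 1 and 4 and without replicates 2 and 3, which left Tgfb1 and Bmp4 untested by the filter.

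Loss of both Apc copies was compared with the wild type to ask how the mutation changes expression. Of the 10 genes, 7 rose (Id2, Id3, Tgfb1, Bmp4, Bmp7, Smad7 and Bambi), 1 fell (Bmp2), and Id1 and Bmpr1a did not pass the test. The changes ran from a difference of -1.19 for Bmp2 to 2.04 for Id2. Among all genes tested, 27.9% were called higher and 17.7% lower. These are 3613 and 2291 genes, against 2851 and 2830 when the libraries were rescaled by size factors and 2764 and 3043 after quantile normalization. The median difference was 1.42 over the 10 genes and 0.12 over all genes, and the median of all genes moved to 0.01 with size factors and to -0.02 with quantile normalization. The 8 called genes kept their direction and call under both rescalings. The 4 Apc_KO and 4 Apc_WT libraries did not overlap for 8 of the 10 genes, as for 40.4% of all genes. Tgfb1 and Bmp4 passed the filter on low values through the Apc_KO libraries alone, so their rise was bound up with being tested. Both are part of the counts and the median of the 10 genes. Of the other 8 genes, 5 rose.

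**Figure D1:**
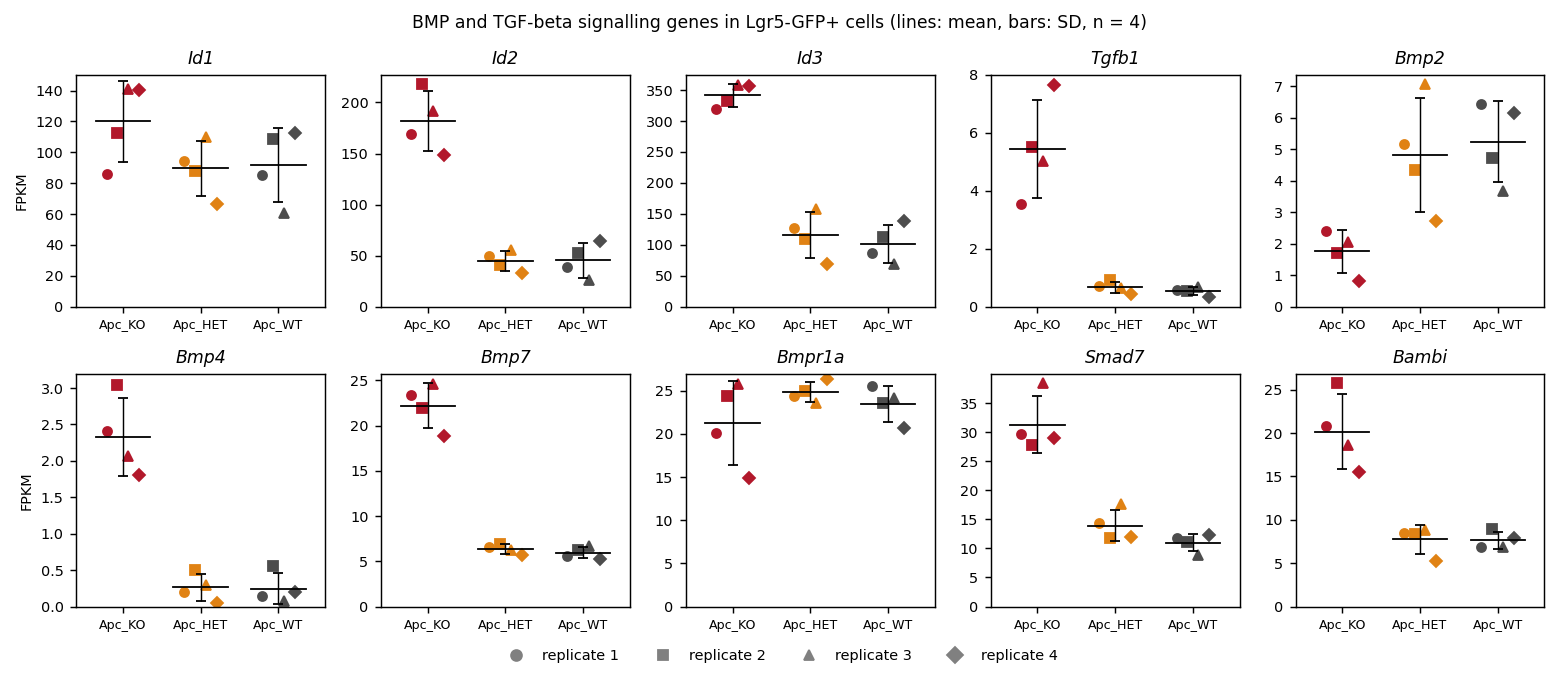
FPKM of the 10 genes in each library of Apc_KO (left), Apc_HET (middle) and Apc_WT (right), with a horizontal line at the mean and a bar of 1 SD (n = 4). The Apc_KO libraries lie above all others for 7 genes and below them for Bmp2, and overlap them for Id1 and Bmpr1a.

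Among the targets, Id2 and Id3 rose to several times their wild-type level and Id1 did not pass the test. Id2 had 169.6, 217.8, 191.6 and 148.6 FPKM in Apc_KO replicates 1 to 4, 49.3, 40.7, 55.9 and 33.5 FPKM in Apc_HET replicates 1 to 4, and 38.6, 52.2, 26.0 and 64.8 FPKM in Apc_WT replicates 1 to 4. All Apc_KO libraries were above all others, and the Apc_HET and Apc_WT libraries overlapped. The mean was 4.01 times that of Apc_WT, a difference of 2.04 (SE 0.25, limma adjusted p = 3.66e-05). Id2 lies on chromosome 12 from 25093795 to 25096243, on the minus strand. This deposited locus covers all of the RefSeq gene and 77.6% of the exon bases annotated in GENCODE.

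Id3 had 319.8, 332.4, 357.9 and 356.8 FPKM in Apc_KO replicates 1 to 4, 127.1, 109.7, 158.6 and 69.1 FPKM in Apc_HET replicates 1 to 4, and 87.1, 112.4, 68.4 and 138.6 FPKM in Apc_WT replicates 1 to 4. The Apc_KO libraries lay close together and far above both other genotypes, which overlapped. Its mean was 3.36 times that of Apc_WT, a difference of 1.79 (SE 0.25, limma adjusted p = 0.000107). Id3 lies on chromosome 4 from 136143446 to 136145775 on the plus strand.

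Id1 had 86.2, 112.8, 140.7 and 140.5 FPKM in Apc_KO replicates 1 to 4, 94.2, 87.7, 110.0 and 66.5 FPKM in Apc_HET replicates 1 to 4, and 85.1, 108.8, 60.7 and 112.3 FPKM in Apc_WT replicates 1 to 4. Apc_KO replicates 3 and 4 were above every other library, replicate 2 was level with the highest Apc_WT library, and replicate 1 was within the Apc_WT range. The difference of 0.40 (SE 0.23, limma adjusted p = 0.177) had a 95% confidence interval from -0.10 to 0.89. That interval runs from 0.935 to 1.86 times the wild-type level on the FPKM + 1 scale, so a change like that of Id2 or Id3 lies outside it, while a smaller one does not. Id1 lies on chromosome 2 from 152735724 to 152737573 on the plus strand.

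The unequal change altered the make-up of the Id transcripts. Id3 stood at 3.71, 2.95, 2.54 and 2.54 times Id1 in Apc_KO replicates 1 to 4, at 1.04 to 1.44 times in Apc_HET and at 1.02 to 1.23 times in Apc_WT cells. Id2 was above Id1 in every Apc_KO library, at 1.06 to 1.97 times, and below it in every other, at 0.463 to 0.524 times in Apc_HET and 0.428 to 0.577 times in Apc_WT cells. The ratio of Id3 to Id2 overlapped, at 1.53 to 2.40 in Apc_KO, 2.06 to 2.84 in Apc_HET and 2.14 to 2.64 in Apc_WT cells. Together the 3 genes reached 576 to 690 FPKM in Apc_KO, 169 to 324 FPKM in Apc_HET and 155 to 316 FPKM in Apc_WT cells.

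Within Apc_HET and within Apc_WT the 3 Id genes ranked the libraries alike. In Apc_HET cells all 3 were highest in replicate 3, then 1, then 2, and lowest in replicate 4. In Apc_WT cells all 3 ran from replicate 4 through 2 and 1 to 3. In Apc_KO cells Id1 and Id3 ran from replicate 3 through 4 and 2 to 1, and Id2 from replicate 2 through 3 and 1 to 4.

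**Figure D2:**
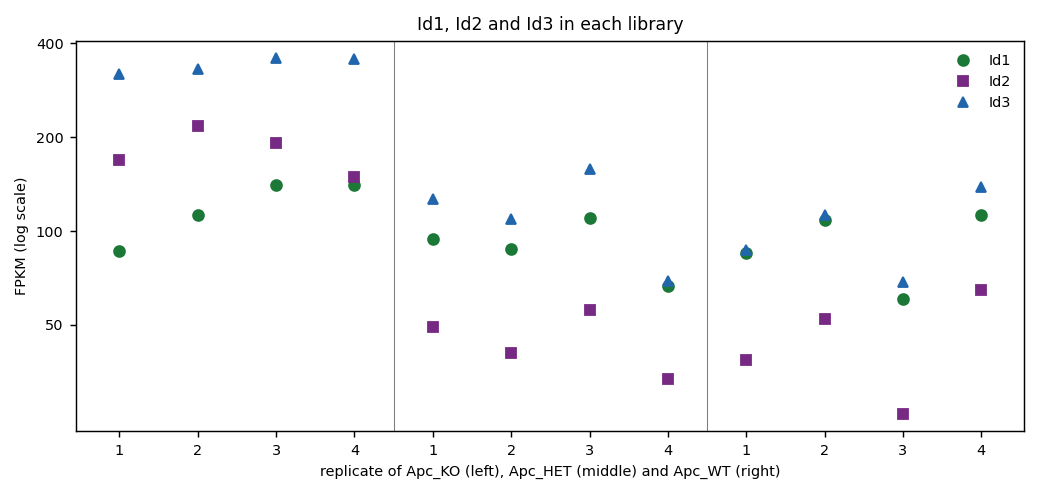
FPKM on a log scale of Id1, Id2 and Id3 in each of the 12 libraries, with Apc_KO left, Apc_HET in the middle and Apc_WT right. Id2 lies above Id1 in the 4 Apc_KO libraries and below it in the other 8, and Id3 is highest in all 12.

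Among the ligands, Tgfb1, Bmp4 and Bmp7 rose and Bmp2 fell. Bmp7, whose product can pair with Bmp2 in heterodimers, had 23.4, 22.0, 24.7 and 18.8 FPKM in Apc_KO replicates 1 to 4, 6.60, 6.89, 6.25 and 5.65 FPKM in Apc_HET replicates 1 to 4, and 5.63, 6.23, 6.72 and 5.25 FPKM in Apc_WT replicates 1 to 4. Of the 10 genes it had the smallest SE, which is fitted over all 12 libraries. The mean was 3.73 times that of Apc_WT, a difference of 1.74 (SE 0.11, limma adjusted p = 2.02e-07). Bmp7 lies on chromosome 2 from 172868012 to 172940621 on the minus strand.

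Bmp2, whose product also signals through Bmpr1a, had 2.42, 1.72, 2.07 and 0.817 FPKM in Apc_KO replicates 1 to 4, 5.18, 4.33, 7.06 and 2.71 FPKM in Apc_HET replicates 1 to 4, and 6.45, 4.72, 3.67 and 6.14 FPKM in Apc_WT replicates 1 to 4. Every Apc_KO library was below every other library, with Apc_HET replicate 4 the nearest. The mean was 0.335 times that of Apc_WT, a difference of -1.19 (SE 0.26, limma adjusted p = 0.00248). Bmp2 lies on chromosome 2 from 133552109 to 133562873 on the plus strand.

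Bmp4, which in the gut is made largely by mesenchyme, had 2.40, 3.04, 2.07 and 1.81 FPKM in Apc_KO replicates 1 to 4, 0.198, 0.503, 0.296 and 0.053 FPKM in Apc_HET replicates 1 to 4, and 0.1403, 0.560, 0.0753 and 0.206 FPKM in Apc_WT replicates 1 to 4. It was below 1 FPKM in all 8 libraries that kept an Apc copy and above 1 FPKM in all Apc_KO libraries. The mean was 9.50 times that of Apc_WT, and the difference was 1.42 (SE 0.17, limma adjusted p = 3.27e-05), or 2.98 with 0.1 in place of 1 added before the logarithm. Its 2 deposited loci on chromosome 14, from 46383570 to 46387266 and from 46387783 to 46388139, hold 79.8% of its annotated exon bases. The second locus touches no annotated exon, yet its FPKM are part of the Bmp4 values. With only the locus of highest mean FPKM, Apc_KO differed by 1.19 from Apc_WT and by 1.11 from Apc_HET. The loci overlap the opposite-strand genes Gm15217 and Gm15222. The strand setting of the counting is not given in the sources used here. Reads of these genes thus cannot be told apart from those of Bmp4.

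Tgfb1, which encodes the founding TGF-beta, had 3.54, 5.52, 5.04 and 7.65 FPKM in Apc_KO replicates 1 to 4, 0.708, 0.906, 0.636 and 0.436 FPKM in Apc_HET replicates 1 to 4, and 0.577, 0.553, 0.697 and 0.341 FPKM in Apc_WT replicates 1 to 4. As with Bmp4, all libraries that kept an Apc copy were below 1 FPKM. The mean was 10.03 times that of Apc_WT, the largest ratio of the 10 genes, and the difference was 2.03 (SE 0.18, limma adjusted p = 3.07e-06), or 3.09 with 0.1 added. Tgfb1 lies on chromosome 7 from 25687017 to 25704974 on the plus strand.

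The rise of Bmp7 and the fall of Bmp2 changed their ratio. Bmp7 stood at 9.66 to 23.1 times Bmp2 in Apc_KO, at 0.885 to 2.08 times in Apc_HET and at 0.855 to 1.83 times in Apc_WT cells. Bmp2, Bmp4 and Bmp7 together reached 21.5 to 28.8 FPKM in Apc_KO, 8.41 to 13.6 FPKM in Apc_HET and 10.5 to 12.2 FPKM in Apc_WT cells, and Bmp7 made most of the sum in Apc_KO cells.

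Bmp4 and Tgfb1 are also made outside the epithelium, so markers of leukocytes, stroma and endothelium were read beside them. Of 10 leukocyte markers 4 were used, and their sum was 0.97 to 2.6 FPKM in Apc_KO, 4.4 to 6.01 FPKM in Apc_HET and 4.72 to 5.24 FPKM in Apc_WT cells. Among them Itgam fell, from a mean of 3.16 FPKM in Apc_WT to 0.347 FPKM in Apc_KO cells, and Cd3e did not pass. The untested Ptprc averaged 0.398 FPKM in Apc_KO and 0.521 FPKM in Apc_WT cells. Cd79a, also untested, averaged 0.434 FPKM in Apc_KO and 0.246 FPKM in Apc_WT cells. Of 12 stromal markers 5 were used, and their sum was 131 to 160 FPKM in Apc_KO, 20.8 to 88.5 FPKM in Apc_HET and 8.91 to 26.5 FPKM in Apc_WT cells. Most of it was Vim, an intermediate filament gene, and without Vim the sums were 12.4 to 41.1 FPKM in Apc_KO, 5.98 to 9.77 FPKM in Apc_HET and 2.16 to 7.86 FPKM in Apc_WT cells. Of the 4 tested, Vim, Pdgfra and Acta2 rose and Pdgfrb fell in Apc_KO against Apc_WT cells. Pdgfra averaged 17.3 FPKM in Apc_KO, 0.689 FPKM in Apc_HET and 0.0151 FPKM in Apc_WT cells. Col1a1, a defining fibroblast gene, had 5.65, 0, 0.197 and 0 FPKM in Apc_KO replicates 1 to 4, and was at 0 in 3 Apc_HET and 2 Apc_WT libraries. It had 0.0745 FPKM in Apc_HET replicate 4, and 0.972 and 2.17 FPKM in Apc_WT replicates 3 and 4. Of 8 endothelial markers 4 were used, at 86.5 to 129 FPKM in Apc_KO, 29.8 to 49.0 FPKM in Apc_HET and 46.1 to 73.1 FPKM in Apc_WT cells. The 3 without Vwf, namely Cdh5, Tek and Flt1, summed to 25.4 to 47.2 FPKM in Apc_KO, 0.0901 to 0.307 FPKM in Apc_HET and 0.0492 to 0.0923 FPKM in Apc_WT cells. Their part in the ligand values was not tested. Fewer cells of a type and less RNA per cell cannot be told apart in sorted bulk samples.

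At the receptor, Bmpr1a, a type I BMP receptor, did not pass the test. It had 20.1, 24.3, 25.7 and 14.9 FPKM in Apc_KO replicates 1 to 4, 24.4, 24.97, 23.6 and 26.3 FPKM in Apc_HET replicates 1 to 4, and 25.5, 23.5, 24.2 and 20.6 FPKM in Apc_WT replicates 1 to 4. Apc_KO replicates 1 and 4 were the lowest 2 of the 12 libraries, and replicates 2 and 3 lay among the others. The difference was -0.16 (SE 0.15, limma adjusted p = 0.403), with a 95% confidence interval from -0.48 to 0.16, or 0.717 to 1.12 times on the FPKM + 1 scale. Without Apc_KO replicates 2 and 3 it was -0.41 (limma adjusted p = 0.0273), and without replicates 1 and 4 it was 0.09 (limma adjusted p = 0.423). Leaving out single libraries gave adjusted p from 0.178 to 0.960. Bmpr1a lies on chromosome 14 from 34410686 to 34503234 on the minus strand and overlaps the antisense gene Gm17110.

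Both inhibitors rose. Smad7, an inhibitory Smad that blocks the receptors of both ligand families, had 29.8, 27.9, 38.5 and 29.0 FPKM in Apc_KO replicates 1 to 4, 14.4, 11.8, 17.6 and 11.9 FPKM in Apc_HET replicates 1 to 4, and 11.7, 11.1, 8.95 and 12.3 FPKM in Apc_WT replicates 1 to 4. The Apc_KO libraries were above all others. The mean was 2.84 times that of Apc_WT, a difference of 1.42 (SE 0.15, limma adjusted p = 1.00e-05). Smad7 lies on chromosome 18 from 75367325 to 75395934 on the plus strand.

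Bambi, a pseudoreceptor that lacks the kinase domain, had 20.8, 25.8, 18.6 and 15.5 FPKM in Apc_KO replicates 1 to 4, 8.53, 8.40, 8.80 and 5.28 FPKM in Apc_HET replicates 1 to 4, and 6.87, 8.90, 6.87 and 7.93 FPKM in Apc_WT replicates 1 to 4. Every Apc_KO library was above every other, and Apc_HET replicate 4 was the lowest of the 12. The mean was 2.64 times that of Apc_WT, a difference of 1.28 (SE 0.18, limma adjusted p = 8.97e-05). Its deposited locus on chromosome 18, from 3507870 to 3512850 on the plus strand, holds 30.0% of the annotated exon bases, so that the values describe that portion.

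**Figure D3:**
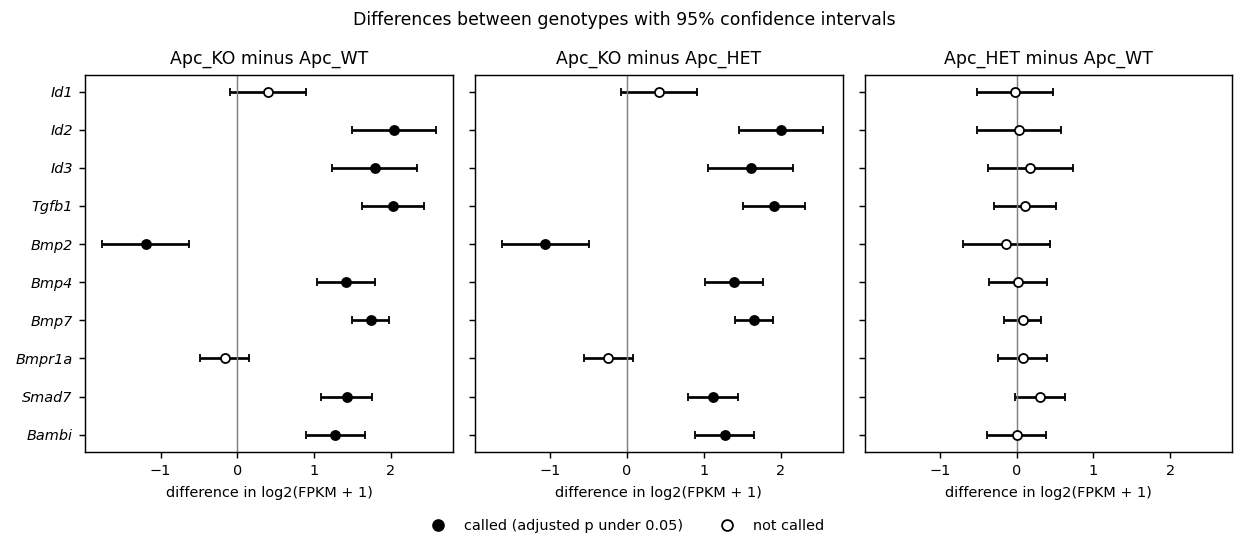
Differences in log2(FPKM + 1) with 95% confidence intervals for Apc_KO minus Apc_WT (left), Apc_KO minus Apc_HET (middle) and Apc_HET minus Apc_WT (right); filled points were called and open points were not. The left and middle panels call the same 8 genes, from Bmp2 at -1.19 and -1.06 to Id2 at 2.04 and 2.01, and the right panel calls none.

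Loss of the second copy was asked about by setting Apc_KO against Apc_HET cells, a comparison that shares the Apc_KO libraries with the one above. Again 7 of the 10 genes rose, 1 fell and 2 did not pass. Tgfb1 and Bmp4, tested through the Apc_KO libraries alone, are in these counts and in the median below. Of the other 8 genes, 5 rose. Among all genes 22.8% were called higher and 18.9% lower. The libraries did not overlap for 8 of the 10 genes, as for 39.5% of all genes, and the median difference was 1.34 over the 10 genes and 0.04 over all. The rises were 2.01 for Id2, 1.91 for Tgfb1, 1.66 for Bmp7, 1.61 for Id3, 1.40 for Bmp4, 1.27 for Bambi and 1.12 for Smad7. The limma adjusted p of these lay between 3.24e-07 for Bmp7 and 0.000274 for Id3. Bmp2 differed by -1.06 (SE 0.26, limma adjusted p = 0.00582). Id1 differed by 0.41 (SE 0.23, limma adjusted p = 0.169), and Bmpr1a by -0.24 (SE 0.15, limma adjusted p = 0.212), or by -0.50 (limma adjusted p = 0.0131) without Apc_KO replicates 2 and 3 and by 0.01 (limma adjusted p = 0.926) without replicates 1 and 4. Leaving out replicates 2 and 3 keeps the 2 Apc_KO libraries lowest for Bmpr1a, so the p of this split are descriptions. Single libraries left out gave adjusted p from 0.0876 to 0.526 for Bmpr1a.

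Loss of 1 copy, Apc_HET against Apc_WT cells, changed none of the 10 genes by the test. Limma called 0 of the 10, with 0 at an unadjusted p under 0.05, and 0% of the 12962 genes, of which 561 had an unadjusted p under 0.05. The libraries did not overlap for 0 of the 10 genes and for 6.08% of all genes. The median difference was 0.06 over the 10 genes and 0.07 over all genes. Smad7 came nearest, with 13.9 ± 2.72 FPKM in Apc_HET and 11.02 ± 1.47 FPKM in Apc_WT cells (SD, n = 4 each), a difference of 0.30 (SE 0.15, limma adjusted p = 0.987) and a 95% confidence interval from -0.02 to 0.63. Bmp7 had the tightest interval, from -0.16 to 0.32 around a difference of 0.08, and Id3 the highest upper bound, at 0.73 around 0.18. Apc_HET replicate 4 was the lowest of its genotype for 8 of the 10 genes, all but Bmpr1a and Smad7. In Apc_KO cells replicate 4 was the lowest for 6 of the 10, and in Apc_WT cells replicate 3 for 7 of the 10.

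The order of the levels, which FPKM allows to be compared per length, also differed between the genotypes. In Apc_KO cells it ran from Id3 through Id2, Id1 and Smad7 to Bmp7, Bmpr1a and Bambi, then Tgfb1, then Bmp4 and Bmp2. Bmp7, Bmpr1a and Bambi overlapped in their ranges, as did Bmp4 and Bmp2, and Apc_KO means ran from 342 FPKM for Id3 to 1.76 FPKM for Bmp2. In Apc_HET cells it ran from Id3, which overlapped with Id1, through Id2, Bmpr1a and Smad7 to Bambi, Bmp7 and Bmp2, which overlapped, and then Tgfb1 and Bmp4, which overlapped too. In Apc_WT cells Id3, Id1 and Id2 came first, each overlapping with the next, followed by Bmpr1a, Smad7, Bambi, then Bmp7 and Bmp2, which overlapped, and Tgfb1 and Bmp4, which overlapped. Bmp2 was thus above Tgfb1 and Bmp4 in Apc_HET and Apc_WT cells, and was the lowest mean of the 10 in Apc_KO cells. Bmp4 was next there, and its values include the locus that touches no annotated exon. The order of Bmp2 and Bmp4 without that locus was not computed.

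The genes whose profiles over the 12 libraries lay nearest to each of the 8 called genes were sought among 11165 genes, by the root mean square difference of centred log2(FPKM + 1) values. Nearest to Id2 was Id3, at 0.244, and nearest to Id3 was Sp5, at 0.230. Bmp4 and Bambi were each other's nearest, at 0.136. Changes of genes near 0 FPKM are understated on this scale, so nearness is not an equal ratio of FPKM. With 0.1 in place of 1 added, Apc_KO differed from Apc_WT by 2.98 for Bmp4 and by 1.37 for Bambi. Bmp7 lay 0.0854 from Reep1, Tgfb1 0.117 from Ccdc85b, Smad7 0.124 from Efcab1 and Bmp2 0.219 from Pcdh8. The next nearest were Phldb2 for Id2, Gabarapl1 for Id3, Pla2g12a for Tgfb1, Ier5 for Bmp2, Laptm4b for Bmp7, Ephb3 for Smad7, and Chst12 for Bmp4 and for Bambi. All points share the libraries and their depth, and the measure is a description.

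The rest of the pathway was read from a list of 65 further genes, of which 50 were used and 47 tested. Of these, 8 (Bmp6, Fst, Gdf11, Itgb8, Ltbp3, Ltbp4, Msx1 and Tgfbr3) passed the filter on low values through the Apc_KO libraries, so that their being higher there was bound up with being tested. Tgfb2 and Inhbb were among those not analysed here. In Apc_KO against Apc_WT cells 29 of the 47 rose and 5 fell, beside 27.9% and 17.7% of all genes, and the median difference was 0.89, beside 0.12 over all genes. Without those 8 genes, 21 of 39 rose and 5 fell. With a filter of 5 FPKM in place of 1 the counts were 18 and 3, and without Apc_KO replicates 2 and 3 the count that fell was 2. Against Apc_HET cells 27 rose and 7 fell (4 without Apc_HET replicate 2), beside 22.8% and 18.9% of all genes, with a median of 0.51. Without the 8 genes, 19 of 39 rose and 7 fell. The 8 lie above this median too, from 1.47 for Tgfbr3 to 6.17 for Msx1. In Apc_HET against Apc_WT cells limma called 0 of 47, with 3 at an unadjusted p under 0.05 and a median of 0.12.

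Other ligands changed in both directions, with 4 of 7 higher and 2 lower in Apc_KO than in Apc_WT cells. Among all genes the shares were 27.9% and 17.7%. Bmp6 and Gdf11, among the 4, passed the filter through the Apc_KO libraries. Tgfb3, a TGF-beta ligand gene like Tgfb1, was not called. It averaged 12.65 FPKM in Apc_KO, 20.7 FPKM in Apc_HET and 4.09 FPKM in Apc_WT cells, and its Apc_HET libraries ran from 0.463 to 46.5 FPKM. Its difference was 1.65 (SE 0.97, limma adjusted p = 0.187) from Apc_WT and -0.08 (limma adjusted p = 0.952) from Apc_HET. Gdf11, a ligand of activin receptors, averaged 7.25 FPKM in Apc_KO and 0.220 FPKM in Apc_WT cells. Gdf15, a stress-induced member of the superfamily, averaged 239 FPKM in Apc_KO and 55.9 FPKM in Apc_WT cells, and rose by 2.03 (SE 0.46, limma adjusted p = 0.00307). Bmp3, a BMP that does not activate BMP receptor Smads, fell to 0.793 FPKM in Apc_KO cells, against 7.17 FPKM in Apc_WT cells, a difference of -2.19 (SE 0.20, limma adjusted p = 3.24e-06). Bmp8a differed by -0.71, but its loci hold 7.15% of the annotated exon bases.

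Of 9 other receptors, 2 rose and 2 fell, shares near those of all genes. Tgfbr2, the type II receptor for TGF-beta, averaged 27.8 FPKM in Apc_KO, 8.67 FPKM in Apc_HET and 7.78 FPKM in Apc_WT cells, and its difference from Apc_WT was 1.70 (SE 0.15, limma adjusted p = 1.90e-06). Tgfbr3, a coreceptor, averaged 2.10 FPKM in Apc_KO and 0.0271 FPKM in Apc_WT cells. The type I receptor genes Acvr1b and Acvrl1 fell by 0.56 and 0.71 on the log2 scale, and the locus of Acvrl1 holds 41.3% of its annotated exon bases. Tgfbr1, Bmpr2 and Acvr1 were among the 5 that did not pass, at differences of 0.22, 0.33 and 0.24.

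Of 6 other Smads, 4 rose, beside 27.9% of all genes. Smad6, the inhibitory Smad of the BMP branch, rose most. It averaged 21.1 FPKM in Apc_KO, 6.98 FPKM in Apc_HET and 6.68 FPKM in Apc_WT cells, a difference from Apc_WT of 1.55 (SE 0.17, limma adjusted p = 1.80e-05). Smad3, a receptor Smad of the TGF-beta branch, rose by 0.65. Smad4, the shared partner, differed by -0.23 from Apc_WT (limma adjusted p = 0.152) and fell by 0.36 against Apc_HET (limma adjusted p = 0.0382). Of 6 intracellular regulators 3 rose, among them Pmepa1, which sequesters TGF-beta receptor Smads, by 1.85, and the corepressor gene Tgif1 by 1.14. Of 4 secreted antagonists 3 rose, with Nbl1 higher by 1.03. Fst, a trap for activins, was at 12.5 FPKM in Apc_KO and 0.120 FPKM in Apc_WT cells. It passed the filter through the Apc_KO libraries.

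Targets other than Id1, Id2 and Id3 had 4 of 6 higher and 1 lower, beside 27.9% and 17.7% of all genes. Among the 4, Msx1 passed the filter through the Apc_KO libraries. The homeobox gene Msx1, a BMP target, had 81.0, 120.4, 100.6 and 88.0 FPKM in Apc_KO replicates 1 to 4, against 0.0679 to 0.487 FPKM in Apc_HET and 0.193 to 0.430 FPKM in Apc_WT cells. The Apc_KO libraries were far above all others, whose ranges overlapped. Ctgf, now named Ccn2, rose by 2.08. Tgfbi, a matrix gene induced by TGF-beta, fell to 4.44 FPKM in Apc_KO cells, against 22.0 FPKM in Apc_WT cells, a difference of -2.05. All 6 genes of TGF-beta storage and activation were called higher, with 3 of them, Itgb8, Ltbp3 and Ltbp4, among the 8 that passed the filter through Apc_KO. Of the other 3, the integrin gene Itgb6 rose by 0.50. Ltbp4, a latent TGF-beta binding protein gene, averaged 16.2 FPKM in Apc_KO, 0.390 FPKM in Apc_HET and 0.193 FPKM in Apc_WT cells. Its relative Ltbp3 averaged 13.8 FPKM in Apc_KO, 2.22 FPKM in Apc_HET and 0.144 FPKM in Apc_WT cells, at a locus that runs past the annotated end of the gene, so that its values may not be of Ltbp3 alone. The 3 E protein genes, whose products bind Id proteins, rose too, Tcf4 by 1.62, Tcf12 by 1.495 and Tcf3 by 0.48.

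**Figure D4:**
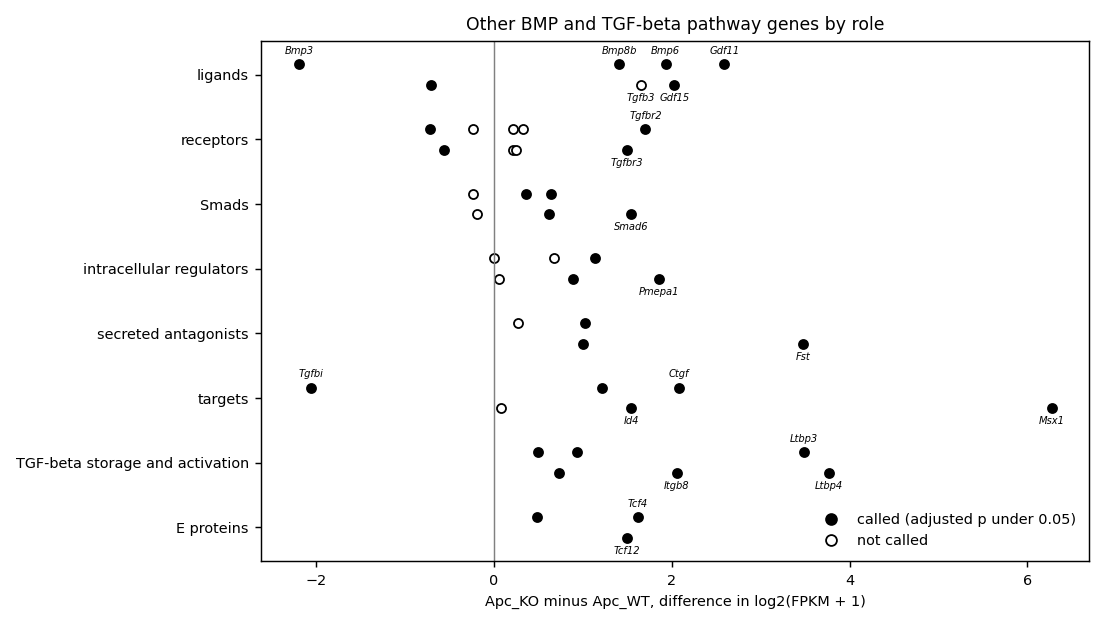
Differences in log2(FPKM + 1), Apc_KO minus Apc_WT, of the 47 other pathway genes tested, in rows by role; filled points were called, open points were not, and points are offset vertically for legibility. Msx1 lies farthest right at 6.27 and Bmp3 farthest left at -2.19, and every gene of TGF-beta storage and activation lies right of 0.

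In Apc_HET against Apc_WT cells none of these genes passed. Ltbp3 had the smallest unadjusted p, at 0.00549, with a difference of 1.395 (SE 0.41, limma adjusted p = 0.987). It had 2.89, 2.42, 3.07 and 0.501 FPKM in Apc_HET replicates 1 to 4, against 0.123, 0.260, 0.0577 and 0.135 FPKM in Apc_WT replicates 1 to 4, so that the libraries did not overlap. Tgif1 differed by 0.49 at an unadjusted p of 0.0304 and Atoh8, a BMP target, by 0.41 at an unadjusted p of 0.0333 (limma adjusted p = 0.987 each). Gdf15, Acvr1b, Smad1, Twsg1, Msx1, Furin and Tcf3 differed by between -0.16 for Gdf15 and 0.11 for Smad1, with no call.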

How the data were processed

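RNA of 12 sorted samples, 4 mice per genotype, was sequenced from random-primed libraries. The deposited values are FPKM per assembled locus, per the file headers; for their making, Cufflinks, Cuffdiff, TopHat and Bowtie and the build GRCm38 (mm10) are named in the submitters' processing notes. Versions, annotation, strand setting and filters are not given in the sources used here, and whole reads were not recovered, so depth and its precision are unknown.

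FPKM were added up over the loci that share a symbol (1137 symbols). Of 14499 symbols, 295 whose loci differed between genotypes and 122 with a failed estimate were left out. Genes with at least 1 FPKM in at least 4 libraries were kept. With limma 3.58.1 in R 4.3.3, log2(FPKM + 1) was fitted in all 12 libraries with a trended prior, the 3 comparisons were two-sided, and p was adjusted over 12962 genes. The procedure was tested on simulated data. Gene positions and exons are those of GENCODE on GRCm38.

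The 10 genes, the list of other pathway genes and the tests were chosen with earlier results of these data known. Other pathway genes named were, per role, the 2 called with the largest difference in each direction for Apc_KO against Apc_WT and 1 for each other comparison. For roles without a call, the member of highest mean was given. Tgfb3, Tgfbr1, Bmpr2, Acvr1, Itgb6, Tcf3 in Apc_KO cells and Atoh8 were added after their values were seen. Alternatives changed the pseudocount, filter, scaling, loci, samples fitted and libraries, and added a replicate block. Apc and Lgr5 were compared by exact permutation.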

Additional observations from a re-analysis of the deposited data

Results flagged for a closer look

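Dixon's test was applied to the groups of 4 libraries of the 10 genes, Apc, Lgr5 and the other pathway genes named by the rule per role. Single libraries stood apart in 6 of 114 groups, and chance alone picks out about 1 in 20. Among the 10 genes this was Bambi in Apc_HET replicate 4, at 5.28 FPKM beside 8.40, 8.53 and 8.80 FPKM in the other 3. Bmp3 had 0.248 FPKM in Apc_KO replicate 4 beside 0.918 to 1.04 FPKM. Tgfbr3 had 4.21 FPKM in Apc_KO replicate 1 beside 1.14 to 1.58 FPKM. Msx1 had 0.0679 FPKM in Apc_HET replicate 4 beside 0.429 to 0.487 FPKM, and 0.430 FPKM in Apc_WT replicate 4 beside 0.193 to 0.228 FPKM. Ltbp4 had 0.878 FPKM in Apc_HET replicate 3 beside 0.196 to 0.273 FPKM.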

How the results depend on the processing

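The 8 calls among the 10 genes in each Apc_KO comparison kept their direction and call wherever the gene was tested. Tgfb1 and Bmp4 were not tested under a 5 FPKM filter or without any Apc_KO library, since too few libraries then passed. With Apc_KO replicates 2 and 3 left out, chosen after seeing Olfm4, Bmpr1a joined Bmp2, giving 2 lower genes in each Apc_KO comparison, and 2 other pathway genes fell against Apc_WT. With replicates 1 and 4 left out, Bmpr1a differed by 0.093 from Apc_WT and 0.013 from Apc_HET. A filter of 5 FPKM left 18 other pathway genes higher and 3 lower against Apc_WT, and fitting 2 genotypes alone left 4 lower against Apc_HET, where leaving out 1 library gave 4 to 8. In Apc_HET against Apc_WT, 1 gene was called with a pseudocount of 0.1, 1 with 2 genotypes fitted, and 0 to 4 without 1 library. There no difference of the 10 genes passed, and signs turned. With size factors Id2 was -0.043 and Bambi -0.068. With quantile normalization Tgfb1 was -0.037, Bmp4 -0.116, Bmp7 -0.0009 and Bambi -0.074. Without 1 library Id1 ran from -0.198 to 0.119, Id2 from -0.201 to 0.228, Bmp2 from -0.308 to 0.065, Bmp4 from -0.065 to 0.136 and Bambi from -0.059 to 0.155. Causes were not tested. Replicate numbers share no stated litter or batch, and same-numbered deviations correlated at -0.195 to 0.180. With a replicate block, 5681 genes were called against 5904 for Apc_KO and Apc_WT, 5178 against 5413 for Apc_KO and Apc_HET, and no call among the 10 genes changed. The depth is unknown, so values under 1 FPKM carry an unknown counting error.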
